A study of Mus musculus with 2 samples.

Results

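The unfolded protein response and endoplasmic reticulum (ER) folding genes were followed as a module of 34 named genes, found by their symbols among the 56980 gene rows of the deposited count matrices of mouse small intestine. The 34 genes fall into 6 roles: stress sensors and transcription factors, chaperones and lectins, protein disulfide isomerases, ER-associated degradation, protein entry into the ER, and the output of the PERK and ATF4 arm. All 34 symbols were present in both matrices. Ddit3 was listed under 2 gene identifiers, of which ENSMUSG00000025408 held 5960 UMIs over all barcodes (a UMI, unique molecular identifier, is a tag by which copies of 1 captured RNA molecule are counted once) and ENSMUSG00000116429 held 0.

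Single cells from the small intestine were measured by 10x Genomics droplet sequencing of RNA, in 2 libraries, 1 labelled control and 1 labelled model. Tissue freed of mesentery and Peyer's patches was treated, per the labels' protocols, with EDTA and afterwards with a mixture of collagenase and DNase. The title of the series names CB001 compounds, simulated microgravity and radiation, but the labels do not say which of these the model animal received, nor the strain, age, sex, number of animals or stretch of intestine. With 1 library per group there is no replicate, so no p-value is given, and library, animal and condition cannot be told apart.

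Secreted and membrane proteins fold in the ER with the help of the chaperone BiP, lectins that bind sugar chains, and enzymes that form disulfide bonds. When unfolded protein builds up, the sensors IRE1, PERK and ATF6 raise the output of folding genes through the transcription factors XBP1, ATF6 and ATF4, and misfolded protein is sent back to the cytosol for degradation. In the gut wall the cells known for a heavy secretory load are plasma cells, which make antibody, goblet cells, which make mucin, Paneth cells, which make antimicrobial proteins, and enteroendocrine cells, which make hormones.

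Promoters of several members carry short elements known from this response, and these are shown first because the members' levels below are read beside them. Promoter windows from 250 bases before to 50 bases after the gene start were taken from RefSeq (GRCm38.p6) and 29 of the 34 members matched. The ER stress response element, ERSE, was searched on both strands as CCAAT, any 9 bases, then CCACG. It was found in 9 of the 29 member promoters (Hspa5, Hsp90b1, Calr, Canx, Pdia6, Dnajc3, Creld2, Syvn1 and Derl3), against 0.137% of the 27025 genes with a promoter. The shorter ERSE-II, searched as ATTGG, any 1 base, then CCACG, was found in 2 (Herpud1 and Dnajb11), against 0.0444% of genes. The XBP1-bound element TGACGTGG was in 0 of the 29, against 0.714% of genes, which says only that these letters are not in these windows. The ATF4-bound amino acid response element, searched as TGATGNAAN, was found in 4 (Trib3, Herpud1, Asns and Chac1), against 4.5% of genes. A match of letters is a description of the window, not a measured binding site. Members and elements were both taken from what is known of this response, so the comparison with all genes is no test of either.

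The windows below run 5′ to 3′ on the strand of the gene, with the element in capitals; an element on the opposite strand starts with CGTGG and ends with ATTGG, or reads GTTGCATCA for the amino acid response element. The first 4 are of a chaperone, a chaperone-like secreted protein and degradation factors whose levels are described below, Herpud1 carries both kinds of element, and the last 2 are of the ATF4 arm. Hspa5 lies at chr2:34772013-34772055, Creld2 at chr15:88819508-88819550, Syvn1 at chr19:6046520-6046562, Derl3 at chr10:75893230-75893272 and Herpud1 at chr8:94386304-94386399, all on the plus strand. Asns lies at chr6:7693212-7693244 on the minus strand and Chac1 at chr2:119351036-119351068 on the plus strand.
Hspa5: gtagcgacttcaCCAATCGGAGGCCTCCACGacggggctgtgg
Creld2: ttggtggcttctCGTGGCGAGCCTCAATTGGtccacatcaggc
Syvn1: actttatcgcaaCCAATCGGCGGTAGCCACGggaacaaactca
Derl3: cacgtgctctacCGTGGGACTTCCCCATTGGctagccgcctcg
Herpud1: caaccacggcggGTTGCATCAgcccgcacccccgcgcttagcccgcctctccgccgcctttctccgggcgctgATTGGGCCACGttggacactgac
Asns: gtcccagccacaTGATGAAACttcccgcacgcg
Chac1: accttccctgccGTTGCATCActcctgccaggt

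**Figure D1:**
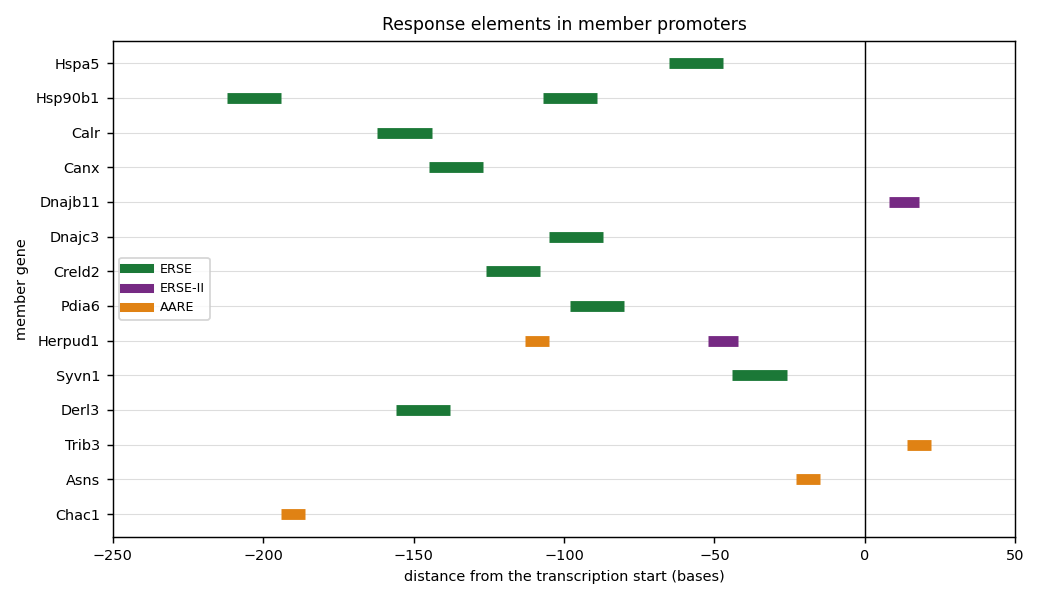
Position of each element found in member promoters, as distance in bases from the transcription start (0), one line per gene; ERSE in green, ERSE-II in purple, the amino acid response element (AARE) in orange. The ERSE of Hspa5 spans -65 to -47, Hsp90b1 holds 2, and the elements of Dnajb11 and Trib3 lie after the start.

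After filtering, 7329 control and 7913 model cells remained, with medians of 3636 and 3761 UMIs and of 10.8% and 5.38% mitochondrial UMIs, and 12 cell barcodes occurred in both libraries. Cells were clustered on genes that left out the members, and 23 of 29 clusters were named from marker genes as 17 classes written with "-like", since the names rest on transcripts alone. The 6 unnamed clusters held 24.8% of control and 15.4% of model cells. The largest shallow one, with 1192 control and 29 model cells, was led by mitochondrial transcripts together with Paneth defensins and was not counted as Paneth-like. Levels are given as CPM, the UMIs of a gene per 1000000 UMIs of the class in a library, with exact 95% Poisson intervals where printed. These intervals cover counting error only.

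The module took up 0.731% of all UMIs of kept cells in the control library and 0.744% in the model library. It was most abundant in the plasma cell-like class (493 cells of the control and 667 of the model library), where it held 1.69% and 1.68% of UMIs. Immunoglobulin transcripts alone were 54.7% and 53.3% of the UMIs of these cells, and of the remaining UMIs the module held 3.73% and 3.59%. The next class was goblet-like cells (339 and 317 cells, with Muc2, the main gel-forming mucin, at 1.97% and 1.57% of UMIs), at 0.922% and 0.966%. Macrophage or monocyte-like cells followed at 0.812% and 0.711%. Enteroendocrine-like cells (90 and 166 cells) held 0.725% and 0.665%, and Paneth-like cells (84 and 8 cells, with 37.1% and 32.0% of UMIs from Lyz1 and the defensin genes) held 0.567% and 0.491%. Over all UMIs, Lyz1 and defensin transcripts included, the Paneth-like share was not above that of crypt stem or transit-amplifying-like cells, at 0.638% and 0.648%. A Paneth-like share without those transcripts is not given, so the order over the remaining UMIs is not stated.

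Single cells of a class varied around these sums. The share of a plasma cell-like cell's UMIs that came from the module had a median of 1.25% with quartiles of 0.871% and 1.89% in the control library, and a median of 1.22% with quartiles of 0.865% and 1.94% in the model library. In goblet-like cells the median was 0.66% (quartiles 0.46% and 1.01%) in the control library and 0.813% (0.544% and 1.14%) in the model library. In T cell-like cells it was 0.446% and 0.38%. The lower quartile of plasma cell-like cells thus lay above the median of goblet-like cells in both libraries.

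**Figure D2:**
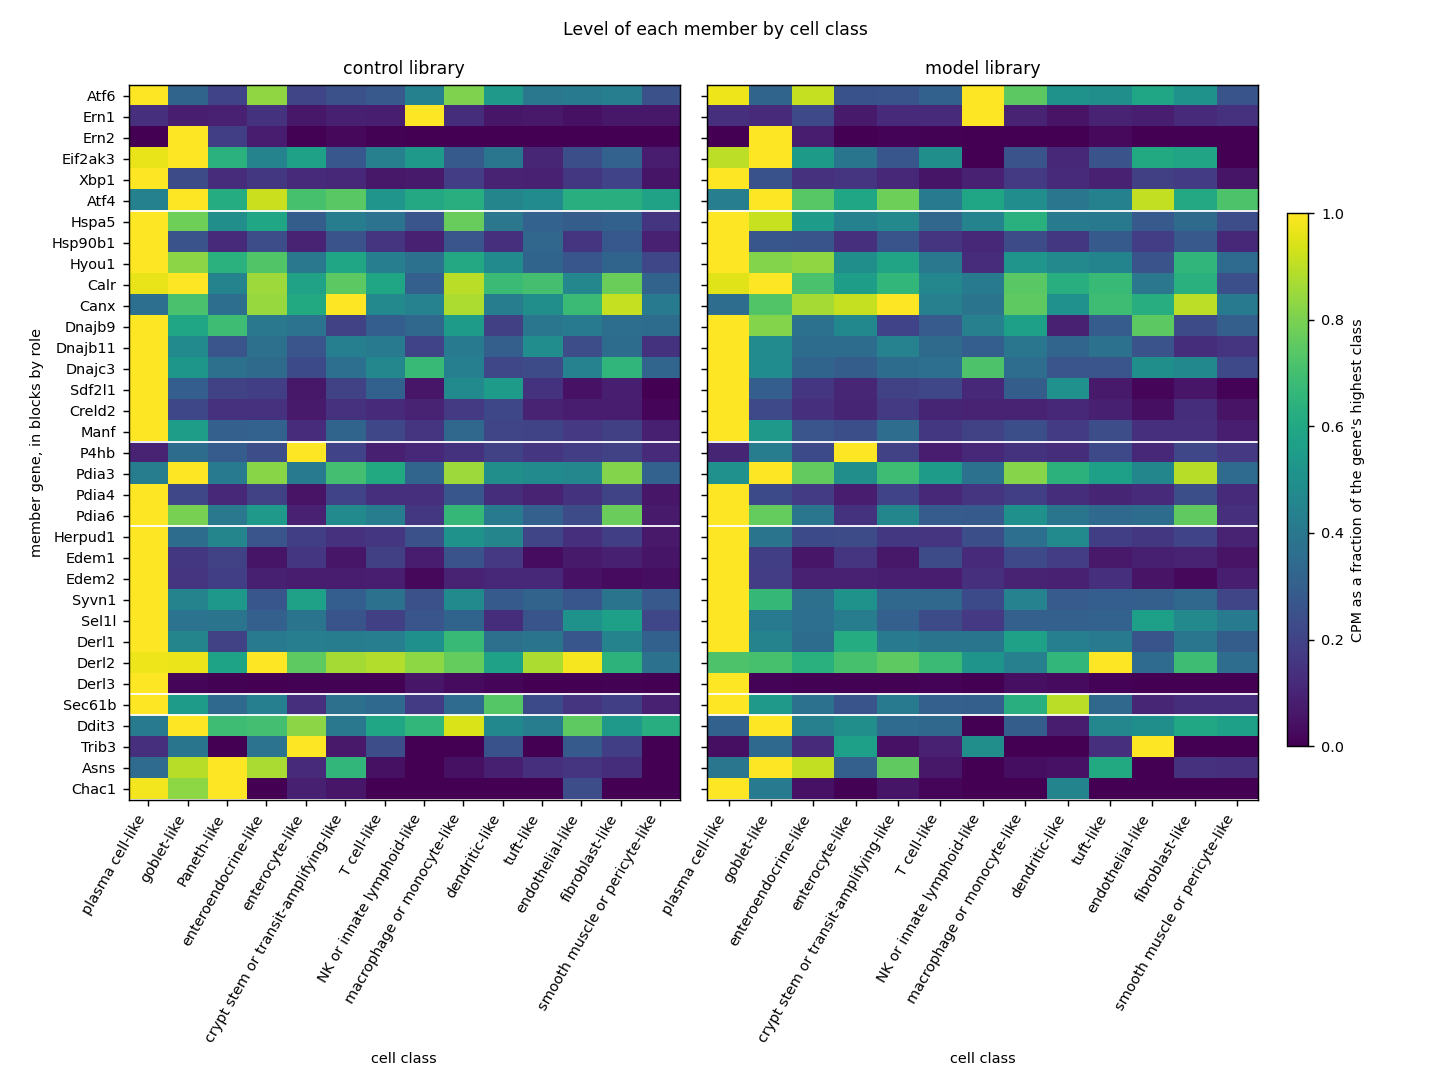
Level of each of the 34 members (lines, in blocks by role) in each of the 13 classes with at least 30 cells in both libraries (columns), with Paneth-like cells added to the control panel, as CPM divided by the gene's highest class drawn, for the control (left) and model (right) library. Among the 13 classes the plasma cell-like column holds the highest level for 21 members in both libraries and the goblet-like column for 7; in the control panel Asns and Chac1 are higher still in Paneth-like cells, from 24 and 5 UMIs.

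To compare secretory with other cells, the level in a secretory class was divided by the unweighted mean of the non-secretory classes with at least 30 cells, 8 (control) and 9 (model library), since B cell-like cells numbered 4 and 277. In plasma cell-like cells 22 of the 34 members were at least 2-fold above that mean in both libraries, where 2.91% of the 16738 genes considered were. The median fold of the 34 members was 2.77 (control) and 2.53 (model library), beside 0.31 and 0.315 over all genes considered. These low medians of all genes go along with the share of UMIs taken by immunoglobulin transcripts. That share lowers the CPM of every other gene of the class. A member described below as short of 2-fold or under the mean is so over all UMIs. More members than the 22 passed without immunoglobulin transcripts in the denominator. Of 13 classes with at least 30 cells in both libraries, the plasma cell-like class was the highest in both for 21 members. Goblet-like cells were the highest for 7: Calr, Pdia3, Atf4, Ddit3, Ern2, Eif2ak3 and Asns.

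Among the stress sensors and transcription factors, Xbp1 and Eif2ak3 were the 2 of 6 that passed 2-fold in plasma cell-like cells. Xbp1, the transcription factor whose mRNA IRE1 splices, stood at 1342 CPM in the control and 1257 CPM in the model library, against non-secretory means of 152.8 and 144.8 CPM, which is 8.79-fold and 8.68-fold. The second highest class was the plasmacytoid dendritic-like cells (47 and 26 cells), another cell type with a developed ER, at 536.4 CPM (interval 459.2 to 622.8) and 486.9 CPM (361.4 to 642). Goblet-like cells came next at 310.7 and 316.9 CPM. The T cell-like level was 88.8 and 73.4 CPM, and no other class of either library reached the plasma cell-like level.

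The 2 IRE1 genes, Ern2 and Ern1, did not follow Xbp1. Ern2, which encodes IRE1 beta, the IRE1 form of mucus-making epithelium, was found at 65.96 CPM (interval 58.7 to 73.9) in control and 69.19 CPM (61.1 to 78) in model goblet-like cells. Paneth-like cells of the control library held 12.21 CPM from 6 UMIs, and enteroendocrine-like cells 5.17 and 5.63 CPM. Plasma cell-like cells held 1 UMI (control) and 0 UMIs (model library), that is 0 of 667 cells with a UMI, which allows a share of up to 0.45% by counting error alone. A UMI of Ern2 was seen in 46.0% and 51.4% of goblet-like cells, at median depths of 7048 and 9482 UMIs, against 0.203% and 0% of plasma cell-like cells at 9382 and 8917 UMIs. After each cell was thinned to 1000 UMIs the goblet-like shares were 7.26% and 8.39%, against 0% in plasma cell-like cells, with exact upper bounds of 0.772% and 0.566%. The 2 classes stayed apart on both scales.

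Ern1, which encodes IRE1 alpha, was highest in NK or innate lymphoid-like cells, at 220.7 CPM from 27 UMIs and 152.6 CPM from 24 UMIs. In plasma cell-like cells it stood at 29.5 CPM in the control and 21.2 CPM in the model library, below the non-secretory means of 42.4 and 28.2 CPM, which the NK or innate lymphoid-like class raised. Eif2ak3, which encodes PERK, was highest of the 13 classes in goblet-like cells, at 60.6 and 56.5 CPM. Plasma cell-like cells followed at 58.5 and 50.8 CPM, 2.72-fold and 2.28-fold above the mean, and B cell-like cells of the model library, which are not among the 13, stood above both at 66.2 CPM. Atf6 was at 111.8 and 98.96 CPM in plasma cell-like cells, 2.40-fold and 1.92-fold, so it passed in the control library but not in the model library. Atf4, the transcription factor translated when PERK is active, stood at 154.7 and 132.8 CPM in plasma cell-like cells, 0.735-fold and 0.742-fold, and at 352.6 and 311 CPM in goblet-like cells.

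Of the 11 chaperones and their partners 9 passed in plasma cell-like cells, all but Calr and Canx. Hsp90b1, the ER form of HSP90, stood at 3904 and 3797 CPM, 5.42-fold and 5.47-fold above the non-secretory mean, and the next class of each library, tuft-like cells, held 1284 and 1073 CPM. Hspa5, which encodes BiP, stood at 1988 CPM (interval 1945 to 2031) and 1891 CPM (1856 to 1927), 2.55-fold and 2.44-fold. Goblet-like cells followed at 1552 and 1730 CPM and macrophage or monocyte-like cells at 1526 and 1202 CPM, so the latter pair had overlapping intervals in the control library and separate ones in the model library. Creld2, a secreted ER protein, stood at 330.5 and 322.3 CPM, 8.02-fold and 10.2-fold, with goblet-like cells at 71.95 and 70.75 CPM. Manf, a secreted partner of BiP, stood at 1083 and 1184 CPM, 4.63-fold and 4.68-fold.

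The remaining chaperone partners also passed. Sdf2l1, which works in the BiP cycle, was 4.31-fold and 5.22-fold above the mean in plasma cell-like cells. The J-domain partners Dnajb9, Dnajb11 and Dnajc3 were between 2.62-fold and 2.90-fold. Hyou1, the exchange factor of BiP, was 2.31-fold and 2.45-fold. The lectin chaperones of the calnexin cycle did not pass over all UMIs, of which immunoglobulin transcripts were 54.7% and 53.3%. Calr was at 827.1 and 825.7 CPM, 1.56-fold and 1.70-fold, and Canx was at 187.5 and 176.4 CPM, 0.582-fold and 0.555-fold. Canx was highest in crypt stem or transit-amplifying-like cells, at 515.3 and 495.6 CPM.

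Of the 4 disulfide isomerases, Pdia4 and Pdia6 passed and Pdia3 and P4hb did not. Pdia4, known to act with BiP on antibody chains, stood at 784 and 761.3 CPM in plasma cell-like cells, 6.83-fold and 6.99-fold, and no other class with at least 30 cells in both libraries exceeded 210.5 CPM in the control or 183.4 CPM in the model library. Pdia6 was 2.90-fold and 2.91-fold. Pdia3, which works with calnexin and calreticulin, was 0.78-fold and 0.918-fold and was highest in goblet-like cells at 700.9 and 701.3 CPM. P4hb, the founding isomerase, was at 176.8 and 173.1 CPM, 0.383-fold and 0.441-fold, the only member under 0.5-fold in plasma cell-like cells of both libraries. Its level was highest in enterocyte-like cells, at 1773 and 1664 CPM, and its protein also serves there as the small subunit of the microsomal triglyceride transfer protein that loads chylomicrons. Over non-immunoglobulin UMIs the P4hb difference from the mean shrank from -1.39 and -1.18 to -0.25 and -0.088 on the log2 scale.

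Over all UMIs, degradation factors passed in 7 of 8 cases, all but Derl2. Derl3, a derlin of the retrotranslocation channel, stood at 263.9 CPM (interval 248.6 to 279.9) and 209.2 CPM (197.5 to 221.5), 64.3-fold and 42.6-fold above non-secretory means of 4.11 and 4.91 CPM. These means rest on 61 and 76 UMIs. The other secretory classes did not share this level: goblet-like cells held 3.11 and 2.33 CPM, enteroendocrine-like cells 0 and 1.54 CPM, and control Paneth-like cells 2.03 CPM from 1 UMI. A UMI of Derl3 was seen in 70.6% and 65.7% of plasma cell-like cells, against 2.40% and 1.33% of crypt stem or transit-amplifying-like cells, which are deeper at medians of 16091 and 14804 UMIs. After thinning to 1000 UMIs a cell the plasma cell-like shares were 23.7% and 17.4%. B cell-like cells of the model library, from which plasma cells descend, held 23.95 CPM from 21 UMIs.

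Its 2 paralogs differed from Derl3. Derl1 was 2.30-fold and 2.31-fold above the mean in plasma cell-like cells, and Derl2 1.19-fold and 1.16-fold, with classes between 18.4 and 49.1 CPM in the control library. The mannose-trimming factors Edem1 and Edem2, which mark glycoproteins for degradation, were 7.93-fold and 7.33-fold, and 12.6-fold and 10.8-fold. Edem2 stood at 391.2 and 415.8 CPM, and plasmacytoid dendritic-like cells were next at 87.3 and 116.9 CPM. Herpud1 was 3.90-fold and 4.15-fold. The ubiquitin ligase Syvn1 and its partner Sel1l were 2.82-fold and 2.53-fold, and 3.45-fold and 3.20-fold. Sec61b, a subunit of the channel through which proteins enter the ER, was 3.22-fold and 2.52-fold, with dendritic-like cells next among the 13 classes at 832.8 and 1035 CPM.

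The PERK and ATF4 output counted 1 member past 2-fold. Of its 4 members only Chac1, a glutathione-degrading enzyme, passed in plasma cell-like cells, at 9.99 CPM from 42 UMIs and 10.8 CPM from 61 UMIs. Its non-secretory means of 0.494 and 0.633 CPM rest on 22 and 18 UMIs, so its folds of 20.2 and 17.0 are poorly set. Ddit3, which encodes the pro-apoptotic factor CHOP, was 0.645-fold and 0.978-fold. Asns, the asparagine synthetase, was 2.26-fold and 1.69-fold. Trib3, a target of ATF4 and CHOP, held 5 and 3 UMIs in all plasma cell-like cells. Mitochondrial UMIs, a sign of damage, were at medians of 1.59% and 1.44% of all UMIs in this class. Immunoglobulin transcripts, at 54.7% and 53.3% of UMIs, lower that share, so it is not compared with other classes.

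The members with an ERSE or ERSE-II in the promoter can be set beside those without. Of the 11 with either element 9 passed 2-fold in plasma cell-like cells, with a median fold of 2.90 in both libraries. Of the 18 with a promoter but neither element 10 passed, with medians of 2.81 and 2.40. The 2 with an ERSE that did not pass over all UMIs were Calr and Canx. Folds over non-immunoglobulin UMIs were not set beside the elements. The fold of members with an element ran from 0.582 (Canx) to 64.3 (Derl3) in the control library. That of members with a promoter but neither element ran from 0.383 to 20.2. Whether the elements bear on these folds was not tested.

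**Figure D3:**
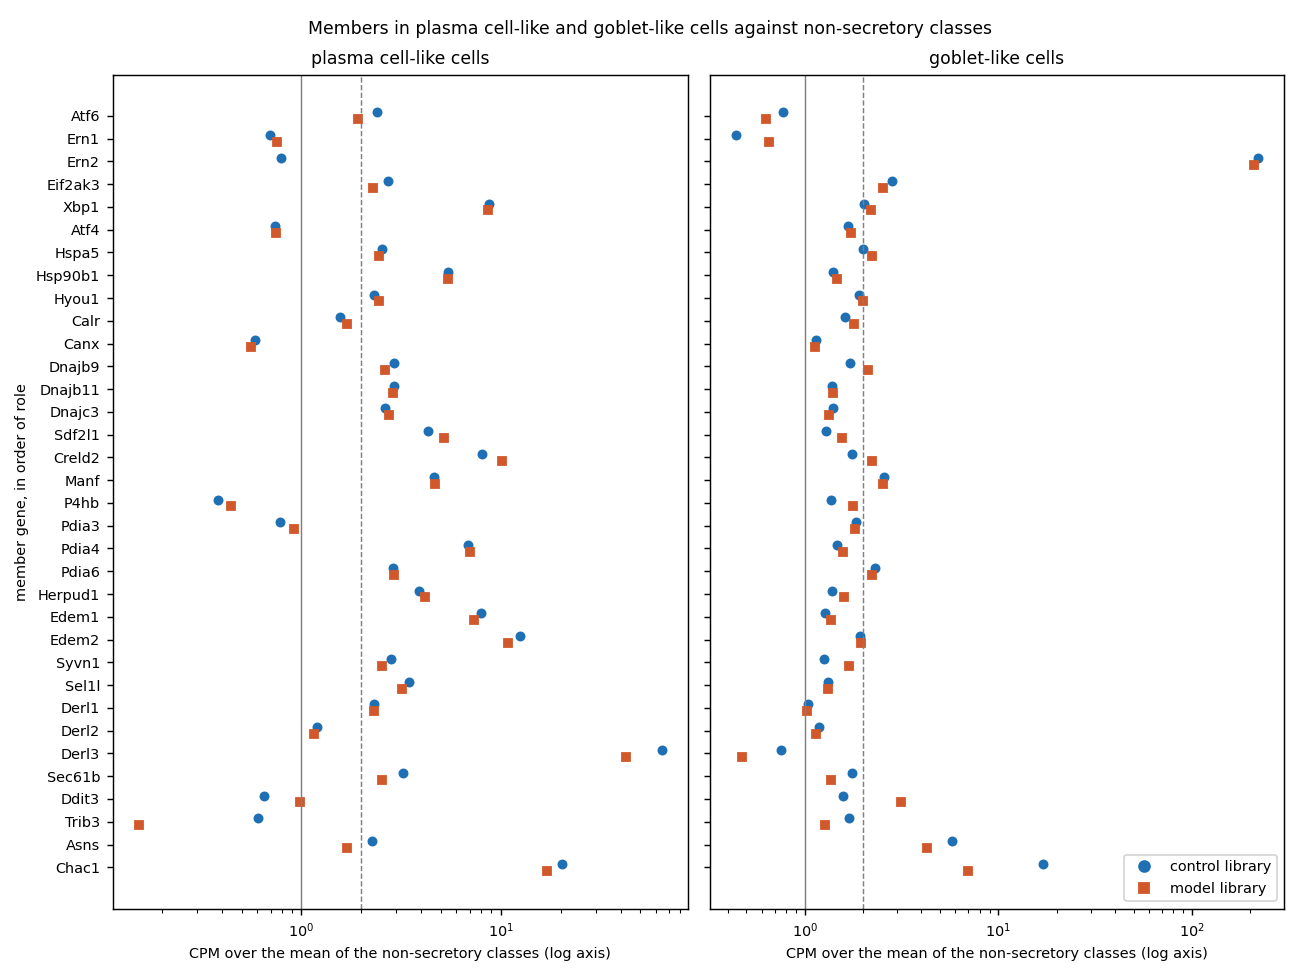
CPM in plasma cell-like (left) and goblet-like (right) cells divided by the mean of the non-secretory classes, on a log axis, for each member, with circles for the control and squares for the model library; lines mark 1-fold and 2-fold. Derl3 lies at 64.3 and 42.6 on the left and Ern2 at 220 and 210 on the right; the model value of Ern2 on the left is 0 and cannot be drawn.

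In goblet-like cells most members stood above the non-secretory mean, with a smaller median fold than in plasma cell-like cells. Here 31 of 34 members were above the non-secretory mean in both libraries, with median folds of 1.59 and 1.71 beside 0.765 and 0.714 over all genes considered, and 7 members were at least 2-fold above it in both, where 4.83% of genes were. The 7 were Ern2, Eif2ak3 and Xbp1 among the sensors and transcription factors, Manf, Pdia6, and Asns and Chac1 of the PERK and ATF4 arm. Xbp1 passed narrowly, at 2.03-fold and 2.19-fold. Manf stood at 602.7 and 639.3 CPM, 2.57-fold and 2.53-fold, and Pdia6 at 2.31-fold and 2.22-fold. Just short were Hspa5 at 1.99-fold and 2.23-fold and Hyou1 at 1.91-fold and 2.00-fold.

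The fold of Ern2 in goblet-like cells, 220 and 210, divides by means that rest on 33 and 21 UMIs. Asns stood at 43.5 and 32.7 CPM, 5.73-fold and 4.28-fold, and Chac1 at 8.44 CPM from 38 UMIs and 4.41 CPM from 17 UMIs. Members below the mean in both libraries were Atf6, Ern1 and Derl3. Plasma cell-like and goblet-like cells therefore shared Pdia6, Xbp1, Eif2ak3, Manf and Chac1 at 2-fold in both libraries. Between the plasma cell-like and goblet-like classes, Ern2 and Asns passed in the goblet-like class only. All other members that passed in either, among them Derl3, Edem1 and Edem2, did so in the plasma cell-like class only. Some of these members also passed in Paneth-like or enteroendocrine-like cells, described below.

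Paneth-like cells were read in the control library, where they numbered 84 with a median of 1430 UMIs. There 5 of 34 members were at least 2-fold above the non-secretory mean, where 5.74% of genes were, and the median fold of the members was 1.11 beside 0.416 over all genes considered. The 5 were Ern2, Dnajb9, Edem2, Asns and Chac1. Dnajb9, at 134.3 CPM, stood at 2.00-fold, Edem2, at 73.3 CPM, at 2.36-fold and Asns, at 48.8 CPM from 24 UMIs, at 6.43-fold. Ern2 and Chac1 rest on 6 and 5 UMIs. Hspa5 stood at 980.8 CPM, 1.26-fold, and Xbp1 at 168.9 CPM, 1.11-fold. Lyz1 and defensin transcripts were 37.1% of the UMIs of the control Paneth-like cells, which lowers the CPM of every other gene there. The count of 5 and the folds given here are over all UMIs, these transcripts included. More members than the 5 passed when the highest genes of each class were left out of the denominator. In the 8 model cells Hspa5 was at 739 CPM (interval 628.3 to 863.7) and Ern2 held 3 UMIs, and no comparison between libraries was made for this class.

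Of the secretory classes counted in both libraries, enteroendocrine-like cells had the fewest members past 2-fold. Paneth-like cells were counted in the control library alone. Only Ern2 and Asns, 2 of 34, were at least 2-fold above the mean in both libraries, where 9.91% of genes were, a share above that of the members (median folds 1.24 and 1.18, beside 1.07 and 1.06 over all genes considered). Ern2 rests on 8 and 11 UMIs. Asns stood at 42.7 and 29.7 CPM, 5.62-fold and 3.89-fold. Atf6 was at 93.1 and 92.7 CPM, 1.99-fold and 1.80-fold, next to plasma cell-like cells among the 13 classes in the control library. Edem1 was under 0.5-fold in both libraries, at 47.2 and 46.1 CPM. Asns was thus at 29.7 CPM or more in goblet-like and enteroendocrine-like cells of both libraries, while T cell-like cells held 2.26 and 2.09 CPM. Crypt stem or transit-amplifying-like cells, counted as non-secretory, held it at 32.2 and 24.7 CPM, nearer to the enteroendocrine-like than to the T cell-like level.

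Plasma cell-like cells came in 2 clusters, whose members differed. Cluster 7 held 469 control and 612 model cells with 56.9% and 57.2% immunoglobulin UMIs, and cluster 25, whose marker genes included those of cycling cells, held 24 and 55 cells with 28.6% and 27.7%. Per 1000000 non-immunoglobulin UMIs, Xbp1 stood at 3158 and 2952 in cluster 7 and at 1594 and 1680 in cluster 25. Herpud1 stood at 1585 and 1680 in cluster 7 and at 566.1 and 618.8 in cluster 25, and Edem1 at 1932 and 1729 against 1240 and 1084. Hsp90b1 was close in both, at 8637 and 7946 in cluster 7 and 8433 and 8857 in cluster 25. Manf was higher in cluster 25, at 2714 and 2986 against 2341 and 2422. Over non-immunoglobulin UMIs the cycling cluster thus held less of Xbp1, Herpud1 and Edem1 and more of Manf in both libraries. The sign of the Hsp90b1 difference was not the same in both. Over all UMIs Xbp1 and Herpud1 were again lower and Manf higher in cluster 25. Edem1 and Hsp90b1, however, were higher there over all UMIs in both libraries. Control cluster 25, at 24 cells, is under the limit of 30 cells set for a class.

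The comparison of the model with the control library asked whether the members moved within a class. A member was called higher or lower where the ratio of CPM was at least 1.5-fold, its exact 95% interval left out 1, and at least 50 UMIs were present over both libraries. In plasma cell-like cells 0 of the 32 members tested were called in either direction, where 4.47% of 7500 genes were called higher and 2.89% lower. Their median log2 ratio was -0.057, beside 0.022 over all genes tested, and the ratios ran from 0.717 (Ern1) to 1.23 (Pdia6). Intervals that left out 1 were found for 17 members, 7 above and 10 below, all with ratios inside the 1.5-fold limits. Over all genes tested 10.6% of intervals lay above 1 and 7.61% below; the members tested had a median of 2656.5 UMIs over both libraries and all genes tested 160, and intervals narrow with more UMIs. Pdia6 went from 455.4 to 559.4 CPM, a ratio of 1.23 (interval 1.16 to 1.30), and Derl3 went from 263.9 to 209.2 CPM, a ratio of 0.793 (0.73 to 0.861). Xbp1 was at 0.937 (0.904 to 0.97) and Hspa5 at 0.952 (0.925 to 0.979). Within cluster 7 alone 0 of 32 were called, where 2.90% of genes were called higher and 4.03% lower.

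Goblet-like cells had 1 call among 32 members tested, Chac1, lower in the model library at a ratio of 0.522 (interval 0.276 to 0.948) from 38 and 17 UMIs. Of the 9164 genes tested in this class 4.86% were called higher and 5.34% lower. The median log2 ratio was 0.026, beside -0.043 over all genes tested. Ern2 had a ratio of 1.05 (0.886 to 1.24) and Xbp1 of 1.02 (0.944 to 1.10). Besides Chac1, Asns, at 0.75 (0.595 to 0.943), and Atf4, at 0.882 (0.818 to 0.951), had an interval below 1, which makes 3 members, where 14.5% of all genes tested had one. An interval above 1 was found for 10 members, led by Syvn1 at 1.27 and Edem2 at 1.25, and including Pdia6 at 1.18 and Hspa5 at 1.11, where 12.0% of all genes tested had one. The members tested in goblet-like cells had a median of 1101 UMIs over both libraries and all genes tested 236, and intervals narrow with more UMIs. In enteroendocrine-like cells 0 of 30 were called, where 2.85% of genes were called higher and 3.45% lower, and 7 members had an interval below 1 and 0 above, where 8.07% and 6.96% of all genes tested did. One of these 7 was Atf4, from 323.9 to 229.8 CPM, a ratio of 0.71 (0.623 to 0.808). The members tested in enteroendocrine-like cells had a median of 354 UMIs over both libraries and all genes tested 150. The median depth of enteroendocrine-like cells was 13394 UMIs (control) and 7364 UMIs (model library); its part in these ratios was not tested.

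Crypt stem or transit-amplifying-like cells, the deepest class with 112185 and 139351 member UMIs, had 0 calls among 30 members, where 1.53% of genes were called higher and 3.27% lower. Ratios ran from 0.767 (Asns) to 1.20 (Manf). In T cell-like cells (1120 and 2280 cells) 0 of 29 were called higher and 1 lower, where 1.34% of genes were called higher and 2.87% lower. The call was Ddit3, from 43.5 to 28.8 CPM, a ratio of 0.662 (0.536 to 0.817), and Atf4 was close to it at 0.69 (0.625 to 0.763). Of the 29 ratios in T cell-like cells 23 were below 1, where 56.8% of all genes tested were, and the median log2 ratio was -0.194 beside -0.037 over all genes tested. The intervals of 16 members lay below 1 and of 0 above, where 11.3% and 6.30% of all genes tested did; the members tested had a median of 1116 UMIs and all genes tested 294. Median depths in this class were 3204 and 2745 UMIs, and the part of depth in these ratios was not tested.

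**Figure D4:**
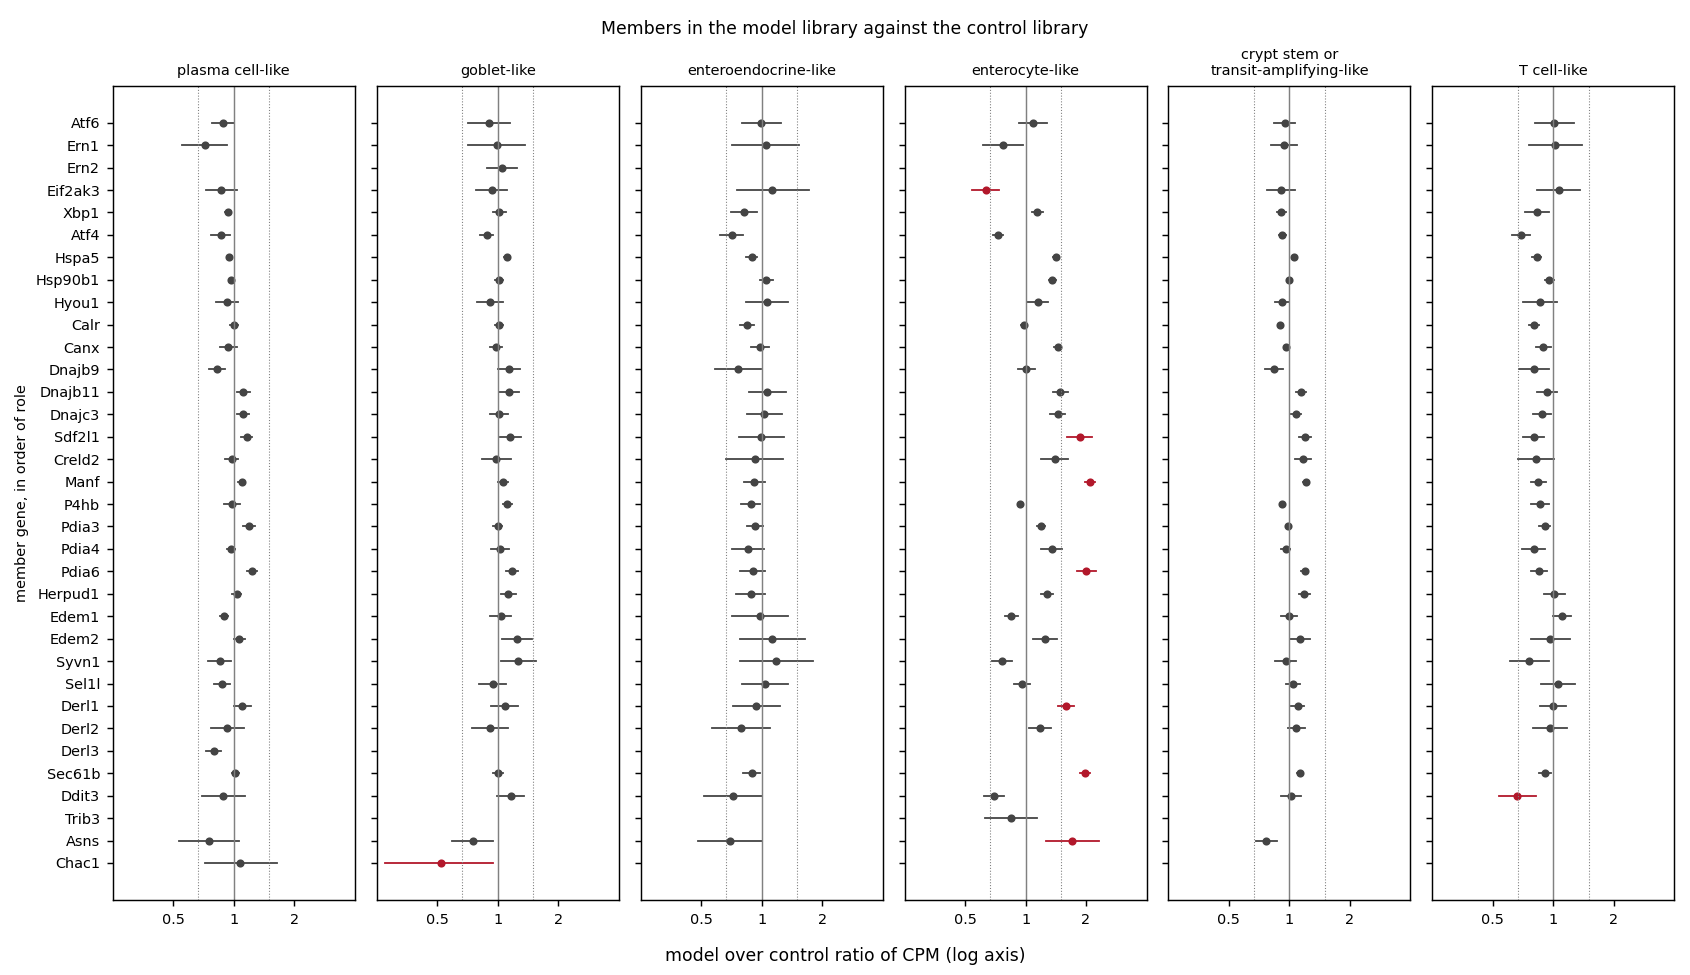
Ratio of CPM in the model library to CPM in the control library (log axis) for each member tested in 6 classes; points are ratios, bars exact 95% intervals for counting error, dotted lines the 1.5-fold limits, and red marks members called. Calls are 6 higher and 1 lower in enterocyte-like cells, Chac1 lower in goblet-like cells and Ddit3 lower in T cell-like cells.

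Enterocyte-like cells (1824 and 1276 cells) gave the most calls, 6 of 31 members higher and 1 lower, where 16.9% of 10147 genes were called higher and 8.87% lower. The share of members called higher was thus near that of all genes. Manf went from 137.1 to 286.5 CPM, a ratio of 2.09 (interval 1.97 to 2.22), Pdia6 from 41.4 to 82.8 CPM, 2.00 (1.79 to 2.24), and Sec61b from 152.2 to 300.1 CPM, 1.97 (1.86 to 2.09). Sdf2l1 (1.86), Asns (1.71) and Derl1 (1.59) were also called higher, and Eif2ak3, at 0.634 (0.542 to 0.74), was called lower. Hspa5 went from 589.7 to 831.4 CPM, a ratio of 1.41 (1.37 to 1.45) that stayed under the limit.

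The enterocyte-like class was made up differently in the 2 libraries, and its median depth was 4306 and 6979 UMIs. It joined cluster 2, led by Gsta1, Reg1 and Reg3a, with 255 control and 755 model cells; cluster 3, led by Nos2, Cubn and Slc5a12, with 1057 and 361; and cluster 4, led by Clca4a, Ly6m and Ada, with 512 and 160. Manf stood at 276.9 and 351.5 CPM in cluster 2, at 86.0 and 86.1 CPM in cluster 3 and at 47.3 and 49.8 CPM in cluster 4. Sec61b stood at 316.5 and 367 CPM, at 90.4 and 89.5 CPM and at 51.4 and 67.2 CPM in the same order. Levels of these members thus differed more between clusters than between libraries within a cluster.

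None of the 7 members called in the whole class was called within a cluster, though Asns in clusters 3 and 4 and Pdia6 and Sdf2l1 in cluster 4 had too few UMIs to be tested. In cluster 2, 0 of 31 members were called in either direction, where 2.36% of genes were called higher and 3.15% lower, and the median log2 ratio was 0.0029. In cluster 3, 0 of 30 were called higher and 2 lower, Calr and Pdia4, where 6.96% of genes were called higher and 5.38% lower. In cluster 4, Xbp1 and Herpud1 were called higher and Calr lower among 25, where 8.45% of genes were called higher and 9.09% lower. Calr was lower in both, from 489.1 to 316.9 CPM in cluster 3 and from 303.6 to 168 CPM in cluster 4. Eif2ak3 was set by cluster in the opposite way to Manf, at 91.3 and 67.2 CPM in cluster 4 against 18.3 and 17.7 CPM in cluster 2 and 22.6 and 25.2 CPM in cluster 3. P4hb stayed between 1380 and 1960 CPM in all 3 clusters of both libraries.

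**Figure D5:**
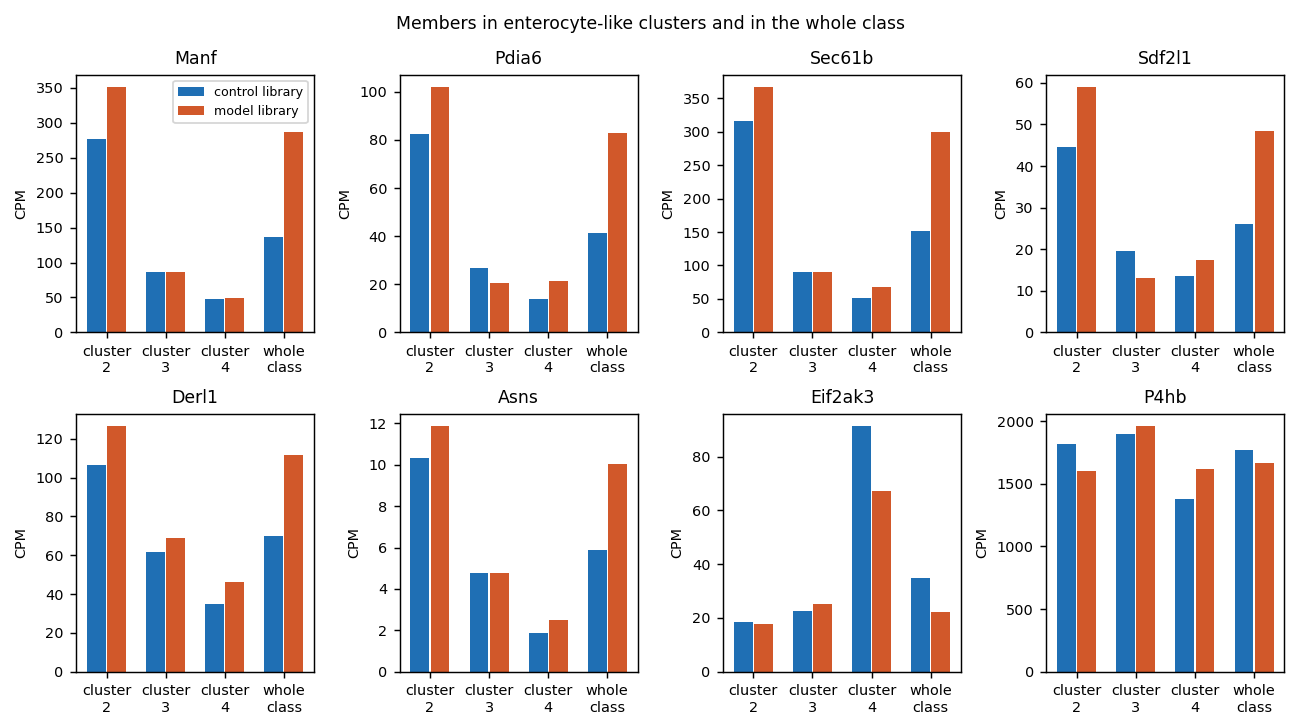
CPM of the 7 members called in enterocyte-like cells and of P4hb in clusters 2, 3 and 4 and in the whole class, for the control (blue) and model (orange) library. Manf, Pdia6 and Sec61b stand highest in cluster 2, which holds 255 control and 755 model cells, and Eif2ak3 in cluster 4.

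Other genes of the secretory pathway, taken from 7 lists, were read in the same way. Of all 16738 genes considered, 2.91% passed 2-fold in plasma cell-like, 4.83% in goblet-like, 5.74% in control Paneth-like and 9.91% in enteroendocrine-like cells. Of 28 translocon, signal peptidase and oligosaccharyltransferase genes, 12 were at least 2-fold above the non-secretory mean in plasma cell-like cells, 2 in goblet-like, 1 in control Paneth-like and 0 in enteroendocrine-like cells. Ssr4, of the translocon-associated complex, was 7.94-fold and 6.09-fold, and the signal peptidase subunit Sec11c 5.98-fold and 6.48-fold in plasma cell-like cells. Of 27 other ER folding factors considered, 9 passed in plasma cell-like, 6 in goblet-like, 7 in control Paneth-like and 4 in enteroendocrine-like cells. Fkbp11, a prolyl isomerase, was 39.9-fold and 48.1-fold in plasma cell-like cells, and the disulfide isomerase Txndc5 33.6-fold and 33.4-fold. Agr2, the isomerase of mucin folding, was 328-fold and 344-fold in goblet-like cells and reached 6038 CPM there in the model library.

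The other 5 lists were read in the same classes, beside the same shares of all genes. A count that is 0 or near such a share is not read as a result about its list. Of 20 other degradation factors 4 passed in plasma cell-like cells (Erlec1, Ube2j1, Selenos and Selenok), 2 in goblet-like cells (Edem3 and Selenos), and 0 in control Paneth-like and in enteroendocrine-like cells. Of 18 other regulators, Creb3l2 and Bhlha15 passed in plasma cell-like cells, Creb3l1, Creb3l4 and Bhlha15 in goblet-like and in control Paneth-like cells, and Creb3l1 and Bhlha15 in enteroendocrine-like cells. Bhlha15 encodes MIST1, a factor of secretory cells downstream of XBP1. Of 25 genes of the integrated stress response considered, 3 passed in plasma cell-like, 4 in goblet-like, 5 in control Paneth-like and 2 in enteroendocrine-like cells. Of 21 genes of ER to Golgi traffic, Kdelr2 and Kdelr3 passed in goblet-like cells and 0 in the other 3 secretory classes. The last list held 15 heat shock and dissociation-response genes, among them Fos, Jun, Junb and Egr1, which can rise when tissue is dissociated. Of these 15, 0 passed in any of the 4 secretory classes.

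Between the libraries the same lists gave few calls outside enterocyte-like cells. Of 28 translocon genes 0 were called in plasma cell-like or goblet-like cells, and 16 were called higher and 0 lower in enterocyte-like cells, with a median log2 ratio of 0.643, where 16.9% and 8.87% of all genes were called and their median was 0.109. Within cluster 2 and within cluster 3 of the enterocyte-like class 0 of 28 translocon genes were called, with medians of 0.122 and 0.0751, and within cluster 4 there were 2 higher and 0 lower of 22 tested. In goblet-like cells 5 of 20 integrated stress response genes tested were called lower (Psat1, Slc7a5, Nupr1, Ddit4 and Gars) and 0 higher, where 5.34% of all genes were called lower, with a median log2 ratio of -0.191. Slc7a5, an amino acid carrier, was also called lower in crypt stem or transit-amplifying-like and T cell-like cells. Of 14 heat shock and dissociation-response genes tested, Hspa1b and Dnajb1 were called lower in plasma cell-like cells and Hspa1a and Hspa1b in T cell-like cells. Of all genes tested, 2.89% and 2.87% were called lower there. In enteroendocrine-like cells Hspb1 was called higher and Dnajb1 lower of 15, where 2.85% and 3.45% of all genes were. In enterocyte-like cells 5 of 14 heat shock and dissociation-response genes were called higher and 0 lower, where 16.9% and 8.87% of all genes were. Within clusters 2 and 3, 0 of 14 were called, and within cluster 4 there were 2 higher and 0 lower of 13 tested. The part of dissociation in these differences was not tested.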

How the data were processed

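Per the file headers, the deposited matrices hold raw whole-number counts of UMIs per gene and barcode from Cell Ranger 7.0.1; the submitters' processing notes give 4.0 as its version and GRCm39 as the build. Which annotation was used, and whether intronic reads counted, is not given in the sources used here. Depth came to 61370270 UMIs over 10259 barcodes in the control and 76701215 UMIs over 11468 barcodes in the model library.

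Kept barcodes had 500 or more UMIs, 200 or more genes and no more than 25% of UMIs from mitochondrial genes. Cells of both libraries were clustered together in scanpy 1.11.5 (2000 variable genes, 30 components, 15 neighbours, Leiden resolution 1, igraph 0.11.9), leaving out 191 genes of the module and the pathway lists and immunoglobulin, T cell receptor, mitochondrial and ribosomal genes. A name needed 3 markers at 2-fold in at least 10% of cells. After the data were seen, 2 naming rules were added: clusters led mostly by mitochondrial genes, and a cluster with mixed markers, stayed unnamed. No doublet caller was run and no doublets were removed. UMIs were summed per class and library, and intervals computed in scipy 1.17.1 (Poisson, and Clopper-Pearson for shares and ratios). Programs were tested on simulated counts. Every member was considered; genes with at least 50 UMIs entered contrasts and ratios. Each member is accounted for, with values for those called and for the highest and lowest of each role; from each pathway list at most 4 genes were to be named, the highest and lowest, and others are named where a count was 5 or fewer, chosen after their values were seen. The members and lists were chosen with earlier results of these data known. Promoter sequences are RefSeq's; their build differs from the authors', so they were matched by symbol only.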

Additional observations from a re-analysis of the deposited data

How the results depend on the processing

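Of 180 recomputed counts and medians 156 kept their direction and stayed within their spread or 1.5 times the value in the report, 22 moved and 2 changed sign. The 22 of 34 members in plasma cell-like cells became 26 without immunoglobulin transcripts in the denominator, within that range. With a limit of 1.5-fold the counts were 16 in goblet-like, 9 in Paneth-like and 4 in enteroendocrine-like cells, and with 3-fold 12 in plasma cell-like, 3 in goblet-like and 3 in Paneth-like cells. Without the 50 highest genes of each class in the denominator the Paneth-like count was 12. The enteroendocrine-like count was 4 from the mean over cells and 1 with each library clustered alone. The median log2 ratio of model to control in enterocyte-like cells, 0.252 in the report, was 0.0048 with a mitochondrial limit of 10%, 0.397 after thinning, 0.151 without the 50 highest genes, 0.339 from the mean over cells and 0.0975 with classes from marker scores. In plasma cell-like cells that median, -0.057, was 0.024 after thinning and -0.119 without cycling cells; in goblet-like cells it was 0.139 from the mean over cells. With alternatives chosen after seeing the data, leaving out cells above 3 times the median UMIs of their class gave 11 members in goblet-like and 4 in enteroendocrine-like cells and an enterocyte-like median of 0.431; clusters 2, 3 and 4 alone gave 0.0029, -0.083 and 0.0102, and plasma cell-like cluster 7 alone -0.119. Of 452 recomputed values of single members 263 stayed within their spread, 184 moved and 5 changed sign, the last all in enterocyte-like cells: Asns was -0.203 with marker scores, and in cluster 3 Pdia6 was -0.394, Sdf2l1 -0.583, Sec61b -0.013 and Eif2ak3 0.155. The cause was not tested, except that the clusters differ in their share of each library. The Paneth-like count stayed at 5 with the mitochondrial cluster counted in. No paired analysis was possible because each group holds 1 library and the groups share 1 replicate number. Depth limits Ern2, Derl3, Chac1 and Trib3 outside their highest classes, where they rest on few UMIs.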

Other observations

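Classes outside the secretory epithelium and plasma cells also held single members at high levels. Plasmacytoid dendritic-like cells held Xbp1, Edem2 and Sec61b near the top of the order: Sec61b stood at 720.3 CPM in the control and 1062 CPM in the model library, and Herpud1 at 305.6 and 428.5 CPM. Macrophage or monocyte-like cells held Hspa5 at 1526 and 1202 CPM and Herpud1 at 340.4 and 250.6 CPM. Fibroblast-like cells (113 and 53 cells) held Canx at 469.4 and 446.8 CPM. Smooth muscle or pericyte-like cells were at the other end, with 0.273% and 0.32% of their UMIs from the module. These values are from 1 library each and were not compared further.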
